A study of Mus musculus with 8 samples.

Results

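The RNA of 42 cell cycle genes was described in myeloid cells of the mouse sciatic nerve after nerve injury. The genes were taken from a list of symbols, as 15 genes of DNA synthesis (S phase genes), 26 genes of chromosome segregation and division (G2M genes) and Stmn1, which was counted with neither phase. All 42 were found among the 30406 genes that the 4 single-cell libraries share. Male and female C57BL/6JolaHsd mice, bought at 7 weeks of age, had received a partial sciatic nerve ligation (PSNL, in which part of the nerve is tied off), a sciatic nerve crush, or a sham operation that exposed the nerve and left it intact. Live cells positive for CD45 and CD11b were sorted from the nerve at 1 week (sham, PSNL and crush) and at 15 weeks (PSNL and crush), with Ly6G+ neutrophils gated out at 1 week. Hashtag antibodies marked 13 samples. At 1 week they were a sham female, a PSNL female and a PSNL male in one library, and a sham male, a crush female and a crush male in another. At 15 weeks they were PSNL F1, F2, M1 and M2 in one library and crush F1, F2 and M1 in the other. No 15-week sham is analysed here. The sources do not state whether a hashtag stands for 1 mouse or several, so p-values measure the spread between hashtag samples. Injury type was confounded with library except for the shams, and time with batch and with the Ly6G gate, so that their parts cannot be told apart.

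A cell that divides copies its DNA in S phase and parts the copies in mitosis. The Mcm2 to Mcm7 proteins form the ring helicase that opens DNA for copying, Gins2 belongs to the complex that switches this helicase on, Pcna is the clamp that holds DNA polymerase on its template, and Rrm1, Rrm2, Tyms and Tk1 supply deoxynucleotides. The G2M genes encode the mitotic kinase Cdk1 and its cyclins, spindle motors of the kinesin family, kinetochore and centromere proteins, Aurora and Polo kinases, and the machinery that degrades cyclins at the end of mitosis. Many of the S phase genes are under E2F transcription factors. Many of the G2M genes are under the DREAM and MuvB complexes, which bind the CHR element, and under NF-Y, which binds CCAAT boxes. In adult tissue, macrophages and their precursors divide at a low rate that can rise after injury. Stmn1 encodes stathmin, which destabilises microtubules and is abundant in dividing cells.

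The promoters of the 2 sets of genes differed in these elements. Promoters of RefSeq (GRCm38.p6; the first entry per gene, 250 bases before to 50 after the start) were at hand for 13 of the 15 S phase genes and 22 of the 26 G2M genes, and those of Mcm4, Gins2, Ccna2, Aurkb, Tpx2, Spc24 and Stmn1 were not. The CHR motif TTTGAA occurred on either strand in 17 of 22 G2M promoters (77.3%) and in 1 of 13 S phase promoters (7.69%), that of Mcm2, against 18.1% of all 27025 promoters. A CCAAT box was present in 19 of 22 G2M promoters (86.4%), 10 of 13 S phase promoters (76.9%) and 37.9% of all promoters. E2F motifs were spelled TTCCCGC, with variants TTGGCGC and also TTCGCGC and lastly TTGCCGC, which may overlap each other. At least 1 of them occurred in 4 of 22 G2M promoters (18.2%), 9 of 13 S phase promoters (69.2%) and 9.69% of all promoters. CHR and CCAAT occurred together in 16 of 22 G2M promoters (72.7%) and in 7.12% of all promoters. A match describes the letters of a window and is not a binding site. The 250 bases upstream of the start are given, 5′ to 3′ on the strand of the gene, for 2 helicase genes and 3 mitotic genes whose levels are described below, and for Pcna, whose estimate at 1 week had the opposite sign, with CHR, CCAAT and E2F matches in capitals.
Mcm6 (helicase subunit; chr1:128359706-128359955, minus strand): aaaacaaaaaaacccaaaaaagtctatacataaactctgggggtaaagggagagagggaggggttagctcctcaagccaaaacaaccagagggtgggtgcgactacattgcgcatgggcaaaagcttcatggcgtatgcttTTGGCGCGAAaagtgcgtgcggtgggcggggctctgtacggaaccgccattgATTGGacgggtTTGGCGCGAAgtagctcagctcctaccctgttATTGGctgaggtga
Mcm7 (helicase subunit; chr5:138171884-138172133, minus strand): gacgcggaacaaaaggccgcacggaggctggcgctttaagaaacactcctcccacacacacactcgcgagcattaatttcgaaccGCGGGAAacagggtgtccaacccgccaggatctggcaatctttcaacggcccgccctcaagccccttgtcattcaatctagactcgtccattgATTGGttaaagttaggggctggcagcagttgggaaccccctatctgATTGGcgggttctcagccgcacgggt
Pcna (sliding clamp; chr2:132253181-132253430, minus strand): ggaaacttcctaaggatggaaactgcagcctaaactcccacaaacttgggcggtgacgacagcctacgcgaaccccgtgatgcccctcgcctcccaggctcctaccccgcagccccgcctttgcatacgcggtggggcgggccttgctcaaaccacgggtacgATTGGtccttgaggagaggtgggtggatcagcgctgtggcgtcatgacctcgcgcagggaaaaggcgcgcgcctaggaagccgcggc
Top2a (topoisomerase; chr11:99024190-99024439, minus strand): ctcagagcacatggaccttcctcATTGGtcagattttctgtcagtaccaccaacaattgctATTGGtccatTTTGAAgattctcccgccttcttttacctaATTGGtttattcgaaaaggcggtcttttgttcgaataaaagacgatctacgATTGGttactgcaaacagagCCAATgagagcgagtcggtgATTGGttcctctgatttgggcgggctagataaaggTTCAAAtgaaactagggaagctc
Mki67 (the antigen Ki-67; chr7:135716380-135716629, minus strand): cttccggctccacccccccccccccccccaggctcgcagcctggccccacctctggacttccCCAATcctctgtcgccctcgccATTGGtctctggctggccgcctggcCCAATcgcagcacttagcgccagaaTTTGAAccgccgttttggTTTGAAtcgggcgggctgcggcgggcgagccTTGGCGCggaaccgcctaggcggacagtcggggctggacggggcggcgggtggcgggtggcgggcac
Ccnb2 (cyclin B2; chr9:70421555-70421804, minus strand): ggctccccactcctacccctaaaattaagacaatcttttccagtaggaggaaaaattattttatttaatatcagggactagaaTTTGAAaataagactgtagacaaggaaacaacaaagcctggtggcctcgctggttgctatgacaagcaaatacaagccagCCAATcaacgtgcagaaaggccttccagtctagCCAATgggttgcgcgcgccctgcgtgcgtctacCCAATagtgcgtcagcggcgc

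Within these windows Mcm6 held 2 CCAAT boxes and 4 overlapping E2F matches with no CHR, whereas Top2a held 6 CCAAT boxes and 2 CHR matches with no E2F match. Mki67 held 2 CHR matches, 3 CCAAT boxes and 1 E2F match. Pcna held 1 CCAAT box and neither of the other motifs.

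After assignment to a single hashtag, 6545 cells were kept, from 64 in the sham female to 1554 in crush M1, and summed gene UMIs (unique molecular identifiers, counts of captured RNA molecules) ran from 247765 to 15288422 per sample. Xist and Ddx3y separated all female from all male hashtags. Ptprc (CD45) ranged from 537 to 945 CPM (counts scaled to a common library total), Itgam (CD11b) from 120 to 525 CPM and Ly6g from 0 to 2.82 CPM. Gm42418, whose locus lies over a ribosomal RNA repeat, took 7.24 to 18.4% of UMIs at 1 week and 1.33 to 2.34% at 15 weeks. Barcodes with several hashtags were left out and made up 26.8 and 28.9% of the barcodes of the 1-week libraries and 1.79 and 5.13% of those at 15 weeks. Between 3 and 7 barcode sequences of each library also occurred in another library.

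Cell cycle RNA was scarce everywhere and differed most between the injuries at 1 week. The S phase genes took 0.0337 and 0.0353% of gene UMIs in the crush female and male, and 0.0159 and 0.0172% in the PSNL female and male. Sham nerves lay at 0.0218% in the female and 0.0316% in the male. Both crush samples thus lay above both shams, and both PSNL samples below them. The G2M genes took 0.0561 and 0.0373% of UMIs in the crush female and male, against 0.0149 and 0.0183% in the PSNL female and male and 0.0295 and 0.0285% in the sham female and male. As group means, the G2M share was 0.029% ± 0.000707 in sham, 0.0166% ± 0.0024 in PSNL and 0.0467% ± 0.0133 in crush (SD, n = 2 each), and the S phase share was 0.0267% ± 0.00693, 0.0166% ± 0.000919 and 0.0345% ± 0.00113. With 2 samples a group, no exact test of a summed share can reach the 0.05 level, and none is given.

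At 15 weeks the S phase shares of the injuries overlapped. They were 0.0195, 0.0172, 0.025 and 0.0252% in PSNL F1, F2, M1 and M2, and 0.0293, 0.0219 and 0.0212% in crush F1, F2 and M1. The G2M shares were 0.0157, 0.0112, 0.0128 and 0.00648% in PSNL F1, F2, M1 and M2, and 0.0387, 0.0311 and 0.0137% in crush F1, F2 and M1. Crush F1 and F2 lay above all PSNL samples, and crush M1, the sample with the most cells, lay among them. These shares rest on few cells, namely those with UMIs of at least 5 G2M genes. In crush F1, F2 and M1, 15, 3 and 10 such cells held 85.6, 84.4 and 69.2% of the G2M UMIs. In the PSNL samples, 3 to 6 such cells held 31.3 to 65.5%. The balance of the 2 phases also varied, with crush M1 among the PSNL samples and crush F1 and F2 above them. The ratio of G2M to S phase UMIs was 0.808, 0.652, 0.512 and 0.258 in PSNL F1, F2, M1 and M2 and 1.32, 1.42 and 0.645 in crush F1, F2 and M1, and it lay between 0.901 and 1.67 in every sample at 1 week. Stmn1 had mean shares of 0.00509% in sham, 0.00214% in PSNL and 0.0088% in crush at 1 week, and 0.00292 and 0.00588% in PSNL and crush at 15 weeks.

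**Figure D1:**
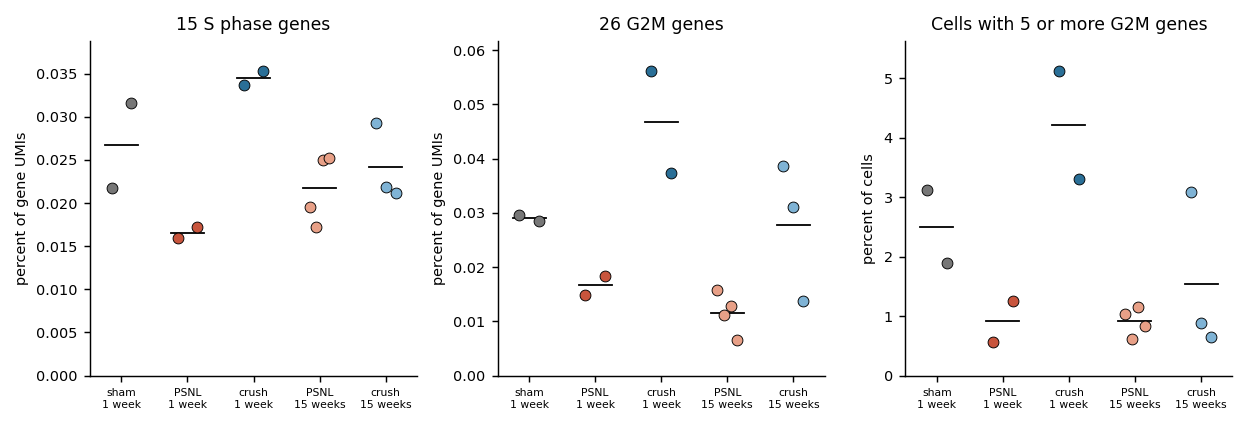
Share of gene UMIs in the 15 S phase genes (left) and the 26 G2M genes (middle), and percent of cells with UMIs of 5 or more G2M genes (right), with 1 point per hashtag sample and a line at the mean of each group. The crush samples at 1 week are the highest in all panels, at 0.0337 and 0.0353% for S phase and 0.0373 and 0.0561% for G2M in the first 2 panels, except that crush F1 at 15 weeks exceeds the lower of them for G2M, at 0.0387%.

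G2M RNA lay mostly in few cells. Of 6545 cells, 98 (1.5%) had UMIs of at least 5 different G2M genes, a cut-off set after the data had been seen. They held 72.2% of all G2M UMIs, 63.4% of Stmn1 UMIs and 23.4% of S phase UMIs, but 3.04% of all UMIs. The distribution of cells thinned out at the cut-off, with 21 cells at exactly 4 G2M genes, 10 at 5 and 3 at 6, and some cells reached all 26. A cut-off of 3 genes gave 181 cells with 75.8% of the G2M UMIs, and one of 8 genes gave 79 cells with 70.5%. At least 5 S phase genes were found in 188 cells, which held 38.3% of the S phase UMIs. Of these, 71 also had 5 G2M genes, which is 37.8% of the S phase cells and 72.4% of the G2M cells. The 98 cells were deeper than the rest, with a median of 13371 UMIs against 6399, and 5.1% of them against 4.36% of the others were among the 6% of barcodes with the highest doublet scores.

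The genes of each phase were spread over cells in different ways. Among G2M genes, 97.4% of the UMIs of Nusap1 (a spindle protein), 96% of those of Ccna2 (cyclin A2) and 95.7% of those of Hmmr lay in the 98 cells. Cenpa, the histone variant of centromeres, was the exception, with 19.9%, and Kif20b and Kif23 lay at 39.1 and 46.3%. Among S phase genes, Pclaf, a partner of Pcna, and Rrm2 had 88.3 and 86.7% of their UMIs in these cells, whereas Mcm2 had 17.8%, Mcm3 14.2% and Pcna 7.37%. Pcna was found in 64.3% of the 98 cells and in 34.1% of the others. Stmn1 was found in 96.9% of the 98 cells and in 7.97% of the others. The rule for these cells used the G2M genes, so their G2M values are a description, and those of the S phase genes and Stmn1 also move with the greater depth of the cells.

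**Figure D2:**
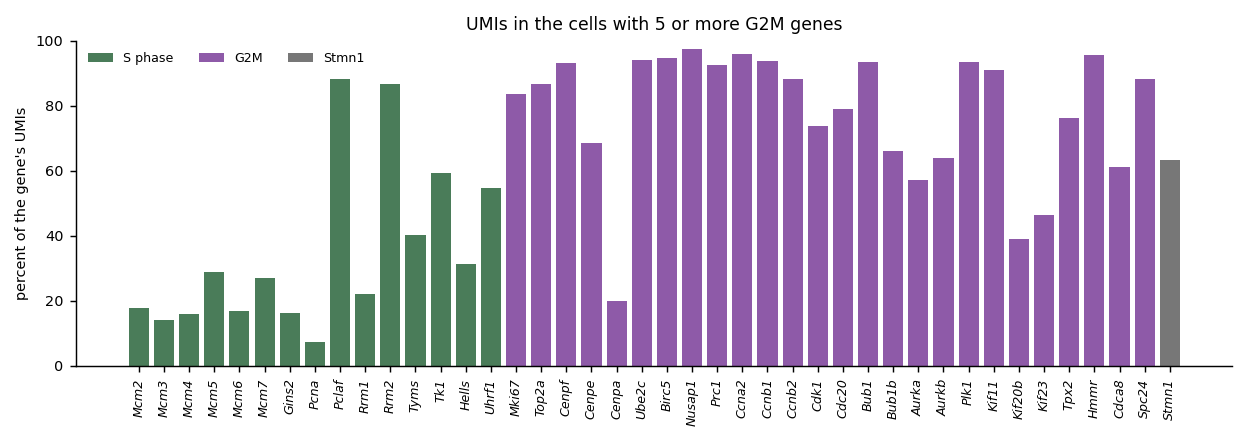
Percent of the UMIs of each cell cycle gene that lay in the 98 cells with 5 or more G2M genes, with 1 bar per gene, S phase genes in green, G2M genes in purple and Stmn1 in grey. The bars of most G2M genes lie above 60%, with Cenpa at 19.9%, and the Mcm genes and Pcna lie between 7.37 and 28.9%.

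Cells with at least 5 G2M genes made up 4 of 170 cells in sham (2.35%, exact binomial 95% interval 0.645 to 5.91), 14 of 1405 in PSNL (0.996%, 0.546 to 1.67) and 37 of 937 in crush (3.95%, 2.8 to 5.4) at 1 week, and 15 of 1652 in PSNL (0.908%, 0.509 to 1.49) and 28 of 2381 in crush (1.18%, 0.783 to 1.7) at 15 weeks. These intervals pool the cells of a group and cover counting error only. By sample, the percentages were 3.12 and 1.89 in sham, 0.564 and 1.26 in PSNL, and 5.12 and 3.31 in crush at 1 week. At 15 weeks they were 1.04, 0.62, 1.15 and 0.833 in PSNL and 3.08, 0.882 and 0.644 in crush. Both crush samples at 1 week stood above both PSNL samples, whereas at 15 weeks the injuries overlapped and crush F1 stood above the rest. Outside these cells the G2M share of UMIs lay between 0.00427 and 0.0113% in every sample. Since deeper cells show more genes, each cell was also thinned to 2000 UMIs, which left out 36 of 170 sham, 287 of 1405 PSNL and 155 of 937 crush cells at 1 week and 55 of 1652 PSNL and 65 of 2381 crush cells at 15 weeks. After thinning, at least 3 G2M genes were found in 3.86 and 3.02% of cells in crush, 0.761 and 1.52% in PSNL, and 2.13 and 1.15% in sham at 1 week. Each sham value was 1 cell, of 47 in the female and of 87 in the male, with intervals of 0.0539 to 11.3% and 0.0291 to 6.24%. The lower crush sample had an interval of 1.7 to 4.93% and the higher PSNL sample one of 0.761 to 2.7%. Both crush samples thus stayed above both PSNL samples at equal depth, with intervals that overlap. The PSNL male lay above the sham male, whose interval held that of the PSNL male. At 15 weeks the thinned percentages were 1.08, 0.43, 0.594 and 0.286 in PSNL F1, F2, M1 and M2 and 2.11, 1.22 and 0.661 in crush F1, F2 and M1, so crush F1 and F2 lay above every PSNL sample and crush M1 among them. For crush F2 this was 4 of 328 cells, against 3 of 277 in PSNL F1, with overlapping intervals of 0.333 to 3.09% and 0.224 to 3.13%.

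The percentage of cells with any UMI of the set was less informative. Without thinning, at least 1 G2M UMI was found in a mean of 29.4% of cells in sham, 26% in PSNL and 32.1% in crush at 1 week, and in 27.8 and 28.1% in PSNL and crush at 15 weeks. At 2000 UMIs per cell the means were 18.7% ± 3.68, 12.9% ± 0.424, 16.3% ± 2.26, 10.7% ± 1.59 and 10.8% ± 1.75 in the same order (SD over samples, n = 2, 2, 2, 4 and 3). Neutrophil-like cells, a type that does not divide when mature, showed a G2M UMI in 24% of 167 thinned cells, against 11.3% of 5780 thinned other cells. The unthinned medians were 1976 and 6696 UMIs. The share of cells with any G2M UMI was thus lower in the other cells than in the neutrophil-like cells, and it is not read as expression or division. Of the neutrophil-like cells 2 had at least 5 G2M genes, and whether the rest hold G2M RNA of their own was not tested. For S phase genes, 11.4% of thinned neutrophil-like cells and 27.4% of the others had a UMI, and the group means were 28.9% in sham, 21.6% in PSNL and 28.4% in crush at 1 week and 27.8 and 28.6% at 15 weeks, against 43.6, 40, 48.7, 59.3 and 64.7% without thinning. The kinesin gene Kif23 stood at 77.9 CPM in neutrophil-like and 8.93 CPM in other cells, and its part in the share of neutrophil-like cells with a G2M UMI was not tested. Neutrophil-like cells were 8.82% of sham, 20.8% of PSNL and 3.63% of crush cells at 1 week, and they held 59% of the G2M UMIs of the PSNL female and 6.51% of those of the PSNL male. Without them the G2M share was 0.0075% in the PSNL female instead of 0.0149%, and 0.0186% in the PSNL male instead of 0.0183%. In the PSNL female, 3 cells with at least 5 G2M genes held 52.3% of the G2M UMIs, and 1 of these cells was neutrophil-like. The values for this sample thus rest on few cells.

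By clusters built without the cell cycle and marker genes, the G2M share was uneven. Of 18 clusters, 6 held all but 6 of the 98 cells. The highest G2M share, 0.198%, was in an unnamed cluster of 98 cells led by Gzma and Nkg7, genes of cytotoxic lymphocytes, with Clec9a and Xcr1, genes of a dendritic cell type, also among its 10 leading genes. Among the 10 markers of T, NK or innate lymphoid cells, 1 was found in at least 20% of the cells of this cluster. Of its cells, 22 (22.4%) had at least 5 G2M genes. It held 17.3% of all G2M UMIs and made up 0.588% of sham, 1.85% of PSNL and 4.91% of crush cells at 1 week and 0.787 and 0.504% at 15 weeks. A dendritic cell-like cluster led by Itpr1 and Tnfsf9 followed at 0.0669%, and an unnamed cluster led by Sdk1 and Ccl12 at 0.0589%. A cluster led by Gm42418, Lars2 and Mki67 lay at 0.0528%, a second dendritic cell-like cluster, led by Ifitm1 and Klrd1, at 0.0492%, and one led by Retnla and Lyz1 at 0.0425%. The Gm42418 cluster held 13 of the 98 cells and was left unnamed. Its 10 leading genes included the resident macrophage markers Cbr2, Lyve1 and Cd163, and 7 of the 9 markers of that list were found in at least 20% of its cells. The neutrophil-like cluster had 0.0306% G2M but 0.00945% S phase UMIs, and the remaining 11 clusters, among them the resident macrophage-like and Spp1 macrophage-like ones, had 0.0159% G2M or less and together 4 of the 98 cells. The clusters named resident macrophage-like held no cells of 1 week.

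Within a cluster the injuries often overlapped. In the Ifitm1 and Klrd1 cluster the G2M share was 0.0159 and 0.0724% in the PSNL female and male and 0.0995 and 0.0207% in the crush female and male at 1 week. In the Gm42418 cluster it was 0.00529 and 0.0416% in PSNL and 0.045 and 0.0981% in crush, without overlap but from at most 99 cells a sample. At 15 weeks the Sdk1 and Ccl12 cluster had 0.0821, 0.00374, 0.0415 and 0.025% in PSNL and 0.0633, 0.135 and 0.0453% in crush. The Itpr1 and Tnfsf9 cluster had 0.0257, 0.0675 and 0.00982% in PSNL F2, M1 and M2 and 0.111, 0.184 and 0.0622% in crush F1, F2 and M1. Of these 4 clusters, 3 overlapped between the injuries. In the Gzma and Nkg7 cluster at 1 week, the share was 0.147% in the PSNL male, above 0.0895 and 0.107% in the crush female and male. The PSNL female had 8 cells there and is not given. In the Retnla and Lyz1 cluster at 15 weeks, it was 0.00641, 0.00646 and 0.0129% in PSNL F1, F2 and M1, below 0.0535% in crush F1. The other samples of 15 weeks had at most 8 cells there. No test was made within clusters.

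**Figure D3:**
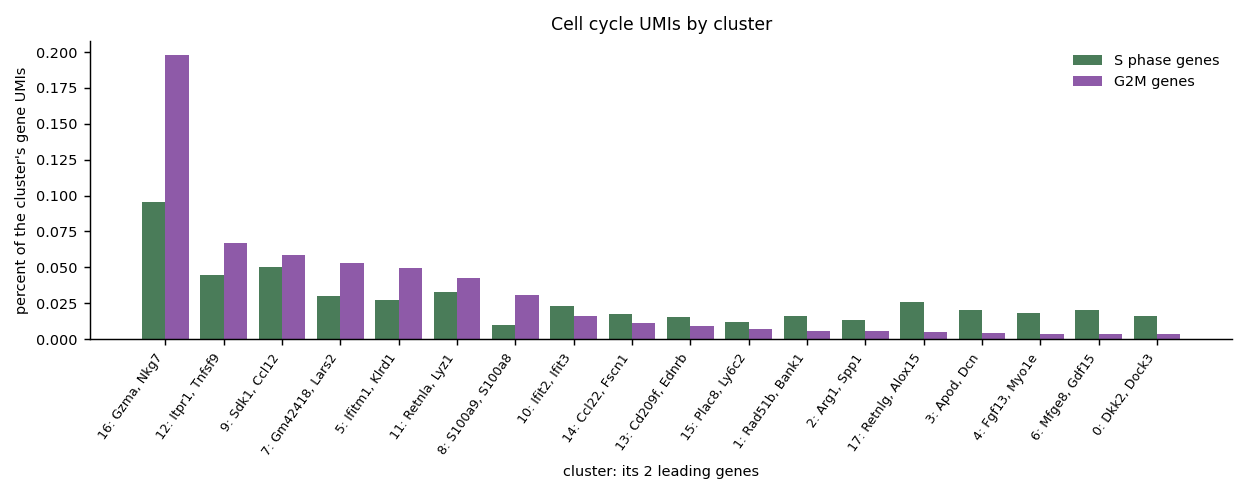
Share of gene UMIs in S phase genes (green) and G2M genes (purple) in each of the 18 clusters, named by number and 2 leading genes and ordered by G2M share. The cluster led by Gzma and Nkg7 stands at 0.0957% S phase and 0.198% G2M, and the G2M share falls below the S phase share from the cluster led by Ifit2 and Ifit3 on.

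The comparison of PSNL with crush at 1 week asks how the lasting and the recovering injury differ early. UMIs were summed per sample and tested with edgeR's quasi-likelihood test, with p-values adjusted over all 11482 genes tested. Levels of single genes are CPM scaled by TMM, and all 42 cell cycle genes passed the filter on low counts. Of the 42, PSNL was lower than crush for 9 and higher for none, against 5.80% of all genes called lower. They were 5 of 15 S phase genes, 3 of 26 G2M genes and Stmn1. The median log2 fold change was -1.18 for S phase and -1.63 for G2M genes, against -0.02 for all genes, and 40 of the 42 lay below 0, as did 51.2% of all genes. PSNL was below crush without overlap of samples for 36 of the 42, against 29.3% of all genes. A sum of counts cannot tell fewer dividing cells from less RNA per cell. In the crush female and male, 17 and 20 cells held 87.3 and 80.1% of the G2M UMIs. In the PSNL female and male, 3 and 11 cells held 52.3 and 59.2%. The G2M genes are thus not separate results, here or in the comparisons below.

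The calls among S phase genes were mainly of the Mcm helicase. Mcm5 was at 6.63 and 7.26 CPM in the PSNL female and male and at 23.7 and 25.7 CPM in the crush female and male, with a log2 fold change of -1.82 (SE 0.44, adjusted p = 0.0192). Mcm6 was at 12.3 and 13.5 CPM in PSNL and 27.6 and 38.6 CPM in crush (-1.36, SE 0.21, adjusted p = 0.0019). Mcm7 was at 12.3 and 13.3 CPM in PSNL and 34.5 and 34.0 CPM in crush (-1.41, SE 0.35, adjusted p = 0.0215). In each of these, both PSNL samples lay at less than the lower crush sample. Mcm3 fell likewise, from 41.9 and 42.6 CPM in crush to 18.9 and 17.9 CPM in PSNL (-1.20, SE 0.31, adjusted p = 0.0247). Rrm1, the large subunit of ribonucleotide reductase, was at 12.8 and 15.7 CPM in PSNL and 33.5 and 24.2 CPM in crush (-0.99, SE 0.23, adjusted p = 0.0167). Mcm2 and Mcm4 did not pass, at -1.05 and -0.44. Pcna, from the same replication machinery, was at 62.1 and 76.4 CPM in PSNL and 66.1 and 60.6 CPM in crush (0.14, SE 0.22, adjusted p = 0.743), and over all 13 samples it ran from 56.1 to 97.3 CPM.

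Among G2M genes, Top2a, which untangles DNA in mitosis, was at 13.3 and 16.2 CPM in PSNL and 70.0 and 60.03 CPM in crush (-2.12, SE 0.56, adjusted p = 0.0284). Cenpe, a kinetochore motor, was at 4.74 and 5.56 CPM in PSNL and 19.2 and 18.7 CPM in crush (-1.85, SE 0.37, adjusted p = 0.00817). Kif20b, a kinesin of late mitosis, was at 3.31 and 4.59 CPM in PSNL and 16.3 and 10.7 CPM in crush (-1.70, SE 0.48, adjusted p = 0.038). None of these overlapped between the injuries. Stmn1 was at 18.5 and 32.9 CPM in PSNL and 97.1 and 94.6 CPM in crush (-1.86, SE 0.42, adjusted p = 0.0138). Mki67, which encodes the proliferation marker Ki-67, was at 15.6 and 30.2 CPM in PSNL and 80.4 and 60.03 CPM in crush and missed the threshold (-1.57, SE 0.49, adjusted p = 0.0535). Ccnb2 (cyclin B2) had the largest estimate of the set, -2.65, with an SE of 0.87 and an adjusted p of 0.0654. Cenpa was the G2M gene with a log2 fold change above 0, at 0.30 (SE 0.31, adjusted p = 0.579), with 35.0 and 53.0 CPM in PSNL and 46.3 and 26.9 CPM in crush.

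Markers of several cell types moved with this comparison, as listed here, and their part in the result was not tested except as follows. The 10 markers of T, NK or innate lymphoid cells summed to 17.7 to 34.3 CPM in PSNL, with Gzma at 0, and to 91.3 to 101 CPM in crush. Dendritic cell markers (9 genes) summed to 221 to 256 CPM in PSNL and 677 to 963 CPM in crush, whereas neutrophil markers (10 genes, Ngp and Camp at 0 in crush) summed to 4690 to 13900 against 1000 to 1960 CPM and Spp1 macrophage markers (8 genes) to 13600 to 17600 against 2170 to 4540 CPM. Resident macrophage markers (9 genes, Lyve1 at 0 in PSNL) summed to 1620 to 1960 CPM in PSNL and 392 to 674 CPM in crush, and endoneurial macrophage markers (8 genes, Sall1 at 0 in both) to 626 to 712 and 1400 to 1820 CPM. Eosinophil markers (7 genes, Epx at 0 in both) lay at 10.3 to 24.1 and 60.7 to 90.5 CPM, and mast cell or basophil markers (6 genes, Cpa3, Fcer1a and Mcpt8 at 0 in both) at 13.5 to 15.7 and 31 to 41.8 CPM. Without the cluster led by Gzma and Nkg7, a choice made after the data had been seen, 8 cell cycle genes were lower, and without the neutrophil-like cluster 11 were. A term for the library rests on the 2 sham samples, a female in the PSNL library and a male in the crush one. It thus cannot be told apart from sex. With this term no cell cycle gene passed, 2 had an unadjusted p under 0.05 in edgeR, and 29 of the 42 lay below 0. The count fell to 2 without either PSNL sample and to 3 without either crush sample of 1 week, and rose to 17 without crush M1 of 15 weeks.

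**Figure D4:**
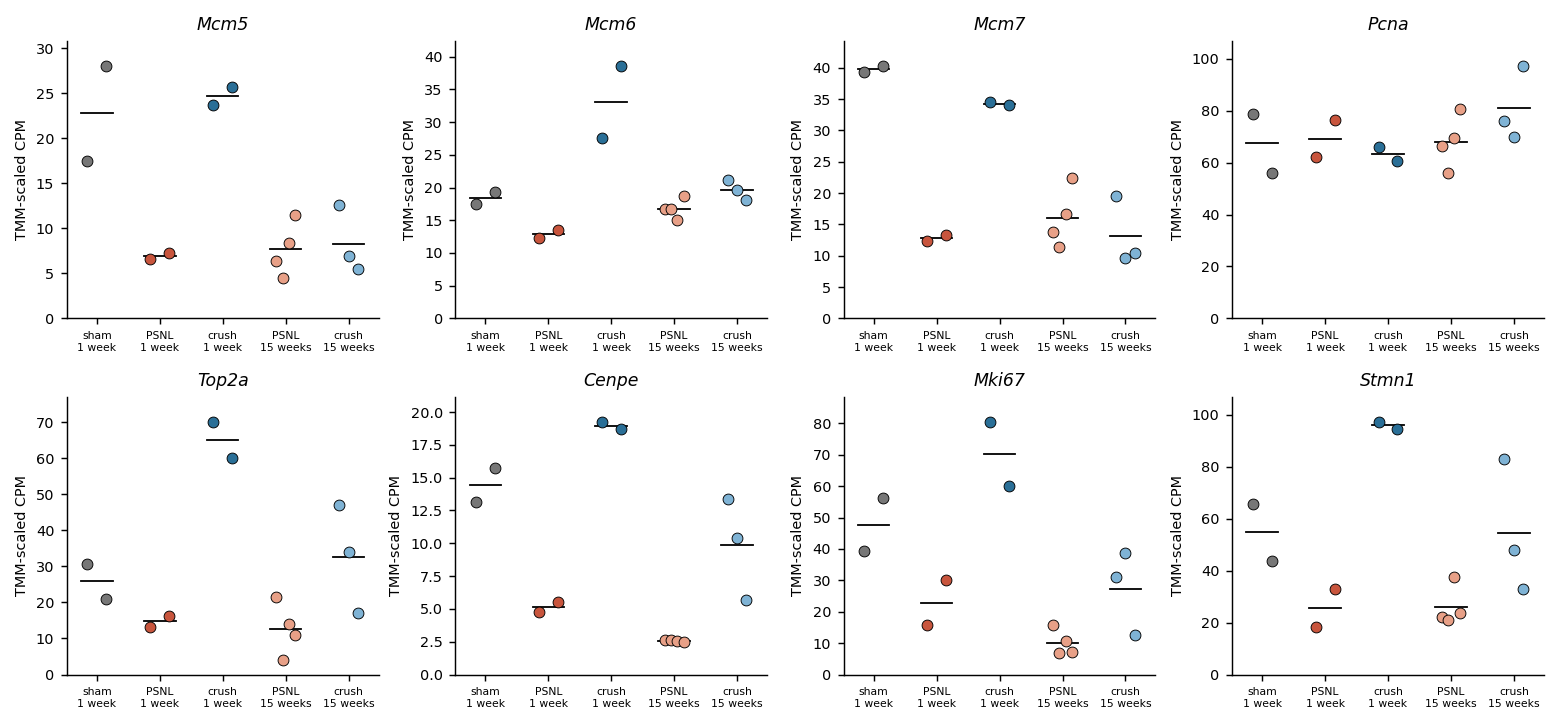
Level of 4 S phase genes (top), 3 G2M genes and Stmn1 (bottom) in TMM-scaled CPM, with 1 point per hashtag sample and a line at the group mean. Except for Pcna, the PSNL samples at 1 week lie below both crush samples, for example at 4.74 and 5.56 against 19.2 and 18.7 CPM for Cenpe.

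Compared with sham, 32 of the 42 estimates lay below 0 in PSNL and 34 above 0 in crush, but 1 difference passed. Both comparisons share the sham samples. In PSNL, 1 of the 42 genes was lower than in sham and none higher, against 2.00% of all genes called lower. This was Mcm7, at 39.4 and 40.3 CPM in sham and 12.3 and 13.3 CPM in PSNL (-1.63, SE 0.43, adjusted p = 0.0483). The median log2 fold change from sham to PSNL was -0.52 for S phase and -0.48 for G2M genes, beside 0.10 for all genes. Mcm5, at 17.5 and 28.0 CPM in sham, had -1.80 (SE 0.56, adjusted p = 0.0847). No gene was called without either PSNL sample, either crush sample of 1 week, the sham male, or PSNL F1 or M1 of 15 weeks. The same held with the library term and without the neutrophil-like cluster or the one led by Gzma and Nkg7, and 2 genes were called without crush F1 or M1 of 15 weeks.

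In crush, edgeR called none of the 42 genes against sham, DESeq2 called none either, and 3 passed an unadjusted p of 0.05. These numbers stand against 0.165% of all genes called and 11.1% at the unadjusted level. The estimates lay above 0 for 34 of the 42 (10 S phase genes, 23 G2M genes and Stmn1), against 56.9% of all genes, and the medians were 0.33 for S phase and 0.99 for G2M genes. Top2a was at 30.7 and 21.0 CPM in sham and 70.0 and 60.03 CPM in crush (1.42, SE 0.72, adjusted p = 0.49). Rrm2 had no UMI in either sham sample and 12.8 and 10.1 CPM in the crush samples, so no fold is given. The sham samples held 64 and 106 cells, and their 247765 and 607195 UMIs limit what could be detected for genes of this level.

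At 15 weeks the estimates of all 26 G2M genes lay below 0 for PSNL against crush, but none passed the test. edgeR called 0 of the 42 genes, against 0% of all genes, and DESeq2 called 1, Cenpe. At an unadjusted p of 0.05, 20 of the 42 were lower, namely 19 of 26 G2M genes, Stmn1 and no S phase gene, against 2.91% of all genes. In crush F1, F2 and M1, 15, 3 and 10 cells held 85.6, 84.4 and 69.2% of the G2M UMIs. The G2M genes were thus largely counted in the same cells and are not separate results. Of the S phase genes, 12 of 15 lay below 0, so that 39 of the 42 did, against 51.2% of all genes. The medians were -1.42 for G2M and -0.23 for S phase genes, beside -0.01 for all genes. The samples did not overlap, with PSNL lower, for 10 genes (Rrm1, Cenpe, Ube2c, Nusap1, Ccna2, Ccnb1, Cdc20, Bub1, Aurka and Hmmr), against 2.83% of all genes.

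Cenpe had the smallest p of the set. It was at 2.61, 2.63, 2.57 and 2.49 CPM in PSNL F1, F2, M1 and M2 and at 13.4, 10.4 and 5.70 CPM in crush F1, F2 and M1, a log2 fold change of -1.87 (SE 0.29, adjusted p = 0.114). Every crush sample exceeded every PSNL sample, with crush M1 the closest to them. Ube2c, an enzyme that marks cyclins for degradation, was at 3.35, 4.06, 1.498 and 0 CPM in PSNL and at 24.7, 17.0 and 7.73 CPM in crush (-2.82, SE 0.61, adjusted p = 0.49). Mki67 overlapped, at 15.6, 6.92, 10.7 and 7.16 CPM in PSNL and 31.1, 38.6 and 12.4 CPM in crush (-1.40, SE 0.39, adjusted p = 0.934). Top2a overlapped as well, at 21.6, 4.06, 13.9 and 10.9 CPM in PSNL and 47.2, 34.0 and 17.0 CPM in crush (-1.38, SE 0.42, adjusted p = 0.969). The helicase genes, by contrast, had estimates from -0.23 (Mcm6) to 0.28 (Mcm7). Mcm5 was at 6.33, 4.54, 8.35 and 11.5 CPM in PSNL and 12.6, 6.95 and 5.44 CPM in crush. Without crush M1 Cenpe passed, with -2.20 (adjusted p = 0.004), and without any other sample edgeR called none of the 42 genes.

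**Figure D5:**
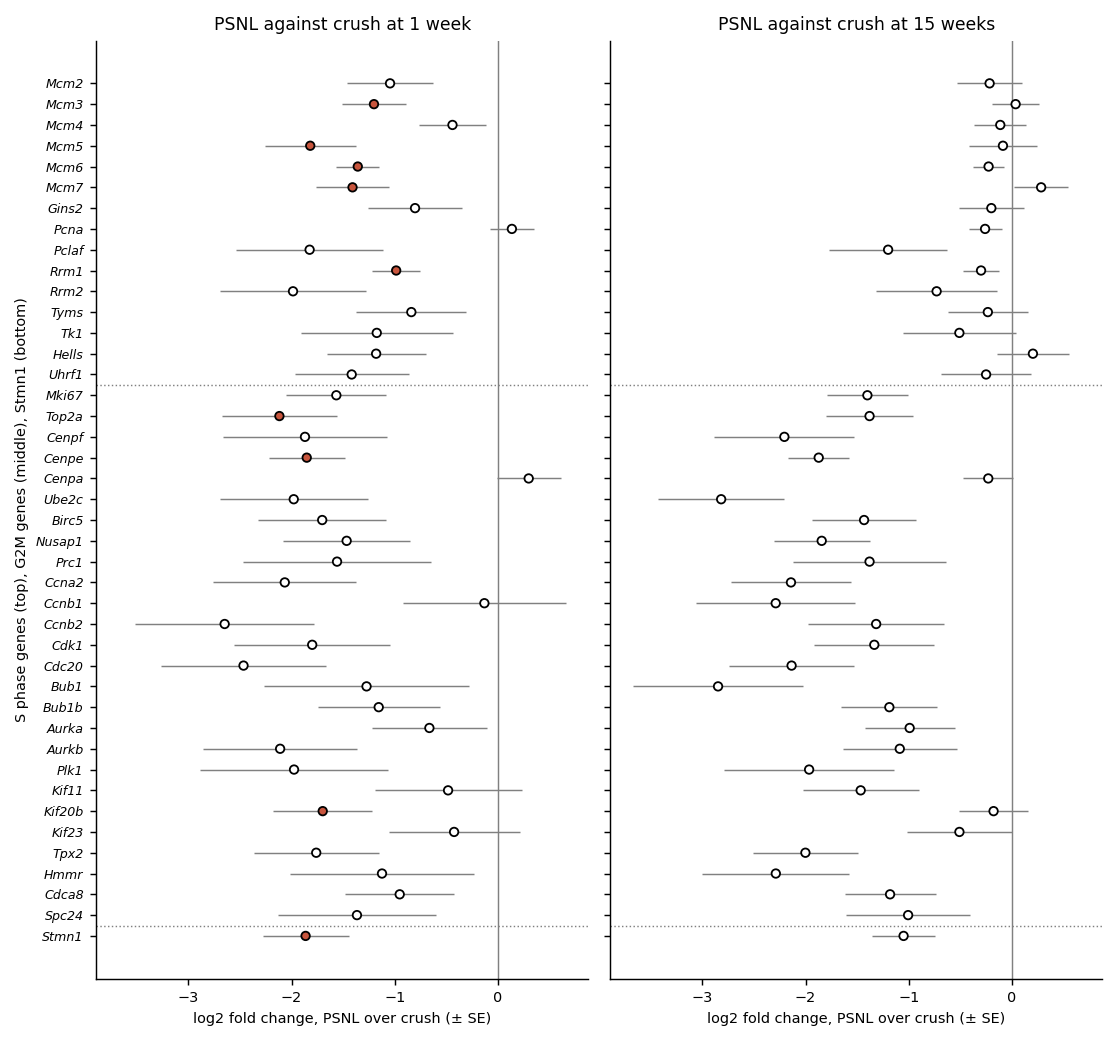
Log2 fold change of PSNL over crush at 1 week (left) and 15 weeks (right) for each of the 42 genes, with the standard error as a line and filled points for genes with an adjusted p under 0.05 in edgeR. The 15 S phase genes stand at the top, with a median of -1.18 at 1 week and -0.23 at 15 weeks, and the 26 G2M genes below them, with medians of -1.63 and -1.42.

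After crush, 12 of the 42 genes were lower at 15 weeks than at 1 week and none higher, against 18.5% of all genes called lower. They were 10 of 15 S phase genes (Mcm2 to Mcm7, Pclaf, Rrm1, Rrm2 and Uhrf1) and 2 of 26 G2M genes (Mki67 and Cenpe). Mcm7 fell from 34.5 and 34.0 CPM to 19.5, 9.65 and 10.4 CPM (-1.38, SE 0.30, adjusted p = 0.00308). Mcm5 fell from 23.7 and 25.7 to 12.6, 6.95 and 5.44 CPM (-1.60, SE 0.37, adjusted p = 0.00421). Mki67 fell from 80.4 and 60.03 to 31.1, 38.6 and 12.4 CPM (-1.41, SE 0.42, adjusted p = 0.0178). Pcna did not pass, at 0.37 (adjusted p = 0.153). The number of calls ranged from 5 without the crush male and 7 without the crush female of 1 week to 8 without crush M1 and 23 without crush F1, and it was 7 without the cluster led by Gzma and Nkg7. Of the 12 genes, Mcm5 and Mcm7 passed in every alternative. The median log2 fold change was -0.997 for S phase and -0.987 for G2M genes, beside 0.01 for all genes. Dendritic cell markers moved alongside, from 677 to 963 CPM at 1 week to 138 to 456 CPM at 15 weeks (9 genes, none at 0), as did migratory dendritic cell markers, from 123 to 493 CPM to 3.27 to 34.1 CPM (7 genes, none at 0), and their part in the result was not tested.

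After PSNL, 5 of the 42 genes were lower at 15 weeks, all of them G2M genes (Mki67, Cenpe, Cenpa, Ccnb1 and Cdca8), against 27.0% of all genes called lower, so that the count was below that background. Cenpa fell from 35.0 and 53.0 CPM to 16.0, 27.0, 21.0 and 14.6 CPM (-1.16, SE 0.26, adjusted p = 0.0024). Ccnb1 (cyclin B1) fell from 5.21 and 3.39 CPM to 0.372, 0.716, 0.642 and 0 CPM (-3.08, SE 0.82, adjusted p = 0.00659), and 11.1% of its UMIs lay in neutrophil-like cells. The median was -0.03 for S phase and -1.11 for G2M genes. Without the neutrophil-like cluster 3 genes were called, and the count was 2 without the PSNL male of 1 week or without PSNL M2, and 8 without PSNL F1. In both injuries time coincides with batch, gate, Cell Ranger version (6.0.0 and 7.0.0 by the matrix headers), the length of the gene list (31053 and 32285 genes), depth per cell (median 3229 to 5315 UMIs per group at 1 week, 6808 to 8201 at 15 weeks) and the share of Gm42418.

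The difference between the injuries was smaller at 15 weeks than at 1 week for 2 helicase genes, a count close to the share of all genes. Tested as an interaction, 2 of the 42 genes passed with a higher PSNL minus crush difference at 15 weeks, Mcm6 (1.13, SE 0.26, adjusted p = 0.0209) and Mcm7 (1.69, SE 0.44, adjusted p = 0.0357), against 3.41% of all genes. Mcm6 was at 16.7, 16.7, 15.0 and 18.7 CPM in PSNL and 21.2, 19.7 and 18.1 CPM in crush at 15 weeks. The median of this difference was 0.83 for S phase genes and -0.05 for G2M genes, beside 0.02 for all genes. For Cenpe it was -0.02 (SE 0.36, adjusted p = 1). No gene passed when either PSNL sample or the crush male of 1 week was left out, and 1 passed without the crush female of 1 week, PSNL F1, PSNL M1, crush M1 or the cluster led by Gzma and Nkg7.

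Further genes of the cell cycle, from lists compiled by function, were read in the same fits. At 1 week, 6 of 38 other replication genes and 5 of 41 other mitosis genes were lower in PSNL than in crush and none was higher, against 5.80% of all genes called lower and 6.70% called higher. Among them were Chaf1a, a histone chaperone of replication (-2.45, adjusted p = 0.0167), and Kif15 and Racgap1, genes of the spindle and of cytokinesis (-2.44 and -2.42, adjusted p = 0.017 and 0.0205). Of 10 genes of G1 cyclins and their kinases and regulators, Ccnd1 (cyclin D1; -1.90, adjusted p = 0.0138) and Cdc25a (-1.23, adjusted p = 0.0281) were lower. Of 19 genes of kinase inhibition and quiescence, Btg1, an antiproliferative gene, and Cdkn1a (p21) were higher in PSNL (1.25 and 1.71, adjusted p = 0.0305 and 0.0372), and Lin9 and Rbl2, of the complexes named above, were lower (-1.75 and -0.93, adjusted p = 0.00362 and 0.0252). Against sham, edgeR called Btg1 in PSNL (1.35, adjusted p = 0.042), where 3.21% of all genes were called higher. It called no gene of these lists in crush, where 9 of the 108 had an unadjusted p under 0.05, against 11.1% of all genes.

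At 15 weeks edgeR called no gene of these lists between the injuries, and at an unadjusted p of 0.05 it gave 18 of 41 other mitosis genes, 3 of 38 replication genes, no G1 gene and 1 of 19 inhibitors, against 4.82% of all genes in either direction. From 1 to 15 weeks, 13 of 19 inhibitor and quiescence genes were lower and 3 higher after PSNL, against 27.0% of all genes lower and 29.2% higher. After crush 7 of the 19 were lower and none higher, against 18.5 and 24.1%. Cdkn1a changed by -3.70 (adjusted p = 1.14e-05) and Cdkn2d (p19) by -2.73 (adjusted p = 5.66e-06) after PSNL. Pola1, a subunit of DNA polymerase alpha, rose in both injuries, by 2.87 after PSNL (adjusted p = 8.51e-07) and 1.62 after crush (adjusted p = 8.06e-05), and 10 of 38 other replication genes fell and 2 rose after crush, against those same shares of all genes. In the interaction, Ccnd1 (2.51, adjusted p = 0.0153) had a higher and Cdkn1a (-2.23, adjusted p = 0.0454) a lower PSNL minus crush difference at 15 weeks than at 1 week, against 3.41% of all genes higher and 4.31% lower.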

How the data were processed

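The authors deposited matrices of raw UMI counts (genes by barcodes) for 4 single-cell libraries, with the hashtag antibody counts in separate rows. According to the submitters' processing notes, reads were processed with Cell Ranger 6.0.0 on GRCm38 and cells with Seurat 5.1.0. The matrix headers name Cell Ranger 7.0.0 for the 15-week libraries. Counting of intronic reads is not given in the sources used here. Gene lists were joined by Ensembl identifier (30406 genes, which held 99.4% of UMIs or more).

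Barcodes were assigned to hashtags by a threshold at the valley of each hashtag's counts, and those with several hashtags, under 500 genes or with 10% or more mitochondrial counts were left out. HTODemux of Seurat 5.3.0 was an alternative. Scrublet marked 9 of 9133 barcodes, did not work as a filter and removed none. Clusters were built with scanpy 1.11.5 (Leiden at a resolution of 1.0) without the cell cycle and marker genes, so their names are rebuilt. The module shares are UMIs of the member genes over all gene UMIs of a sample.

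Counts were summed per hashtag sample, filtered with filterByExpr (11482 genes), scaled by TMM and put through edgeR's quasi-likelihood test (version 4.0.16, R 4.3.3) in 1 fit of 13 samples and 5 groups (8 residual degrees of freedom, 4.54 prior degrees of freedom). A Benjamini-Hochberg adjusted p under 0.05 was called, and SE is the standard error of the log2 fold change. DESeq2 1.42.0 was an alternative. On simulated counts for PSNL against crush at 1 week (11166 genes), 30 of 98 genes changed by a factor of 2 and 80 of 100 changed by a factor of 4 were recovered. The changed genes were drawn at random from all genes tested, so these rates do not describe the cell cycle genes in particular. No pair of replicates agreed within sampling noise (chi-square per degree of freedom 4.29 to 47.3). All 42 members could be named, and of each further list up to 4 genes per comparison, by smallest adjusted p. The members and lists were chosen with earlier results of these data known.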

Additional observations from a re-analysis of the deposited data

Results flagged for a closer look

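Within PSNL at 15 weeks, the group with 4 samples, 49 values were checked for a sample far from the others, and 4 stood out, where chance gives about 1 in 20. Tk1, a thymidine kinase of S phase, was at 7.47 CPM in PSNL M2 and at most 2.78 CPM in the other samples. Cdca8, a member of the chromosomal passenger complex, was at 2.18 CPM in PSNL M2 and at least 4.3 CPM in the others. Stmn1 was at 37.4 CPM in PSNL M1 and at most 23.6 CPM in the others, and its share of gene UMIs was 0.00426% there and at most 0.00253% elsewhere.

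The PSNL minus crush difference of Mcm6 and Mcm7 differed between the times, by 1.13 and 1.69 on the log2 scale, in a test of the difference itself. Barcodes that carried several hashtags were used in no comparison. Their G2M share of UMIs was 0.0318% in the crush and sham library at 1 week and 0.0452% in the crush library at 15 weeks. Both lay above the 0.0295% of the higher sham sample, which is of 1 week. The 0.0318% lay below the 0.0561 and 0.0373% of the crush female and male of that library. The 0.0452% rests on 45 barcodes, of which 3 had at least 5 G2M genes. In the PSNL libraries the share was 0.0121% at 1 week and 0.0115% at 15 weeks, below that sham sample.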

How the results depend on the processing

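For crush against sham, 0 genes were called in every alternative run. For PSNL against sham the 1 call became 0 with the rule that the top hashtag exceed the next by a factor of 3, without the neutrophil-like cells, without the cluster led by Gzma and Nkg7 (added after the data were seen) and with the library as a term, and 2 with looser cell filters, the DESeq2 test, no filter on low counts and a fit of the groups of the comparison alone. For PSNL against crush at 1 week the 9 calls became 20 with no filter, 0 with the library term and 21 with the groups of the comparison alone, and the other alternatives that kept every sample gave 8 to 12. At 15 weeks the 0 calls became 1 with the DESeq2 test and 2 with no filter. For PSNL over time, 5 calls became 3 without neutrophil-like cells and 8 with no filter. For crush over time, 12 calls became 20 with HTODemux and 7 without the Gzma and Nkg7 cluster. In the interaction, 2 calls became 1 without that cluster and 4 with no filter. Leaving out 1 sample gave 0 to 2, 0 to 0, 2 to 17, 0 to 1, 2 to 8, 5 to 23 and 0 to 3 calls for PSNL against sham, crush against sham, PSNL against crush at 1 and 15 weeks, PSNL over time, crush over time and the interaction.

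Shares of gene UMIs moved by more than 1 SD in these cases. The S phase share of PSNL at 1 week (0.0166%) became 0.0186% without Gm42418, 0.0176% without neutrophil-like cells and 0.0151% without the Gzma and Nkg7 cluster, and that of crush at 1 week (0.0345%) became 0.0383% without Gm42418 and 0.0304% without that cluster. The G2M share of sham (0.029%) became 0.0309% with HTODemux, 0.032% with that factor of 3 between hashtags, 0.0339% without Gm42418 and 0.0299% with looser filters. The G2M share of PSNL at 1 week (0.0166%) became 0.013% without neutrophil-like cells, with a drop in the PSNL female and none in the PSNL male. Of the log2 fold changes of called genes, 1 turned its sign, that of Mcm3 between the injuries at 1 week, to 0.75 with the library term (adjusted p = 0.757). Leaving out a sample kept the call in 296 of these values and lost it in 81, and the other alternatives kept it in 294 and lost it in 41. The cause of these changes was not tested.

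The replicate numbers at 15 weeks share a number and no stated origin, and the deviations of same-numbered samples correlated at 0.0829 (F1), 0.166 (F2) and 0.113 (M1). With the replicate block, 0 members were called, 31 of 34 tested lay below 0 and 9 had an unadjusted p under 0.05. With sex as the replicate block at 1 week, 12 members were called between PSNL and crush. The shares of all genes in these block fits are not given here, so the counts show only how the member counts moved. Depth limits detection most in the sham samples, with 64 and 106 cells.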
